A study of Homo sapiens with 4 samples.

Results

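Among the H3K27me3 peaks called in HaCaT cells given DMSO, 2241 lay close to a peak called in cells given AKBA without touching it. These members were chosen by 3 conditions: a DMSO peak under 5000 bp wide, no overlap with any AKBA peak by as little as 1 bp, and at most 10 kb between the peak and the nearest AKBA edge. They made up 2241 of all 8890 DMSO peaks (25.2%, exact 95% Clopper-Pearson interval 24.3 to 26.1%). DMSO peaks without an AKBA overlap, called DMSO-only here, numbered 4041 (45.5% of the list). The members were 55.5% of them, and the remaining 1800 lay farther from AKBA peaks. Overlap, width and distance chose the members, so these values and everything measured from the same pair of lists are descriptions without a test. All intervals are for counting error alone. They take each peak as independent of the others and say nothing of how cultures vary.

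HaCaT cells are human keratinocytes, the principal cells of the epidermis, that grow as an immortal line. Chromatin from cells kept for 12 hours with AKBA, or with DMSO, the usual solvent for such compounds, was immunoprecipitated with an antibody against H3K27me3. The series holds 4 samples, 1 H3K27me3 library and 1 input DNA library in AKBA medium and the same pair in DMSO medium. AKBA is a common short name of an acetylated boswellic acid from frankincense, but the labels give neither the full name nor a dose. All values come from the 13155 AKBA peaks and the 8890 DMSO peaks. With 1 library for each condition no difference has a replicate check, and the depth of both libraries is unknown.

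H3K27me3 is the trimethyl mark that a Polycomb repressive complex places on histone H3, and it is associated with silenced genes. The complex can bind the mark it has made, which lets the mark spread from a first site along the chromatin into domains. Peak callers often divide such a domain into several stretches, because the signal between them stays below the threshold. A place outside a list was not called and may still carry the mark.

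The members were narrow peaks of modest score, much closer in these respects to the other DMSO-only peaks than to the DMSO peaks that overlapped an AKBA peak. Their median width was 368 bp, against 333 bp for the DMSO-only peaks farther away and 847 bp for the overlapping, or shared, DMSO peaks. Widths of members ran from 160 to 2454 bp, and 95.7% of them were under 1 kb, against 96.8% of the farther DMSO-only peaks and 56.9% of the shared ones. The width condition had no effect on the choice, since no DMSO-only peak reached 5000 bp and the 70 DMSO peaks that did were all shared. Together the members covered 982.7 kb, or 13.0% of the bases in the DMSO list.

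The narrowest width in the DMSO list, 160 bp, was that of 308 members (13.7%), 16.3% of the farther DMSO-only peaks and 3.32% of the shared peaks. The score is the authors' own value for each peak on a scale that is not stated, and its median was 2.73 in members, 2.70 in the farther DMSO-only peaks and 3.35 in the shared peaks. High score and width did not go together within the members. The 747 members with the highest scores, from 3.03 to 8.28, had a median width of 215 bp. The 747 with the lowest scores, at most 2.50, had a median width of 437 bp.

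**Figure D1:**
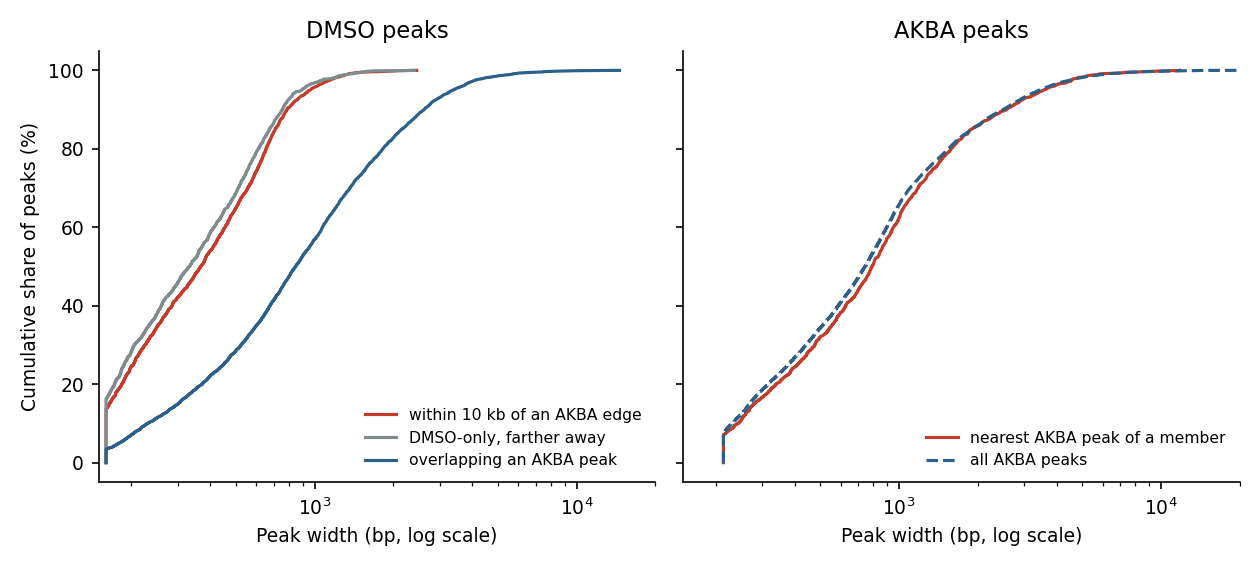
Cumulative share of peaks (%, vertical axis) against peak width (bp, log scale). On the left, members, the other DMSO-only peaks and the shared DMSO peaks are drawn, and the members (median 368 bp) run beside the other DMSO-only peaks (333 bp) and far left of the shared peaks (847 bp). On the right, the nearest AKBA peaks of members (median 789 bp) nearly follow all AKBA peaks (742 bp).

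DMSO-only peaks were concentrated around AKBA peaks. The sequence within 10 kb of an AKBA edge, AKBA peaks themselves left out, came to 182.6 Mb and held 12.3 DMSO-only peaks per Mb, against 0.659 per Mb in the remaining 2729 Mb between the first and last peak of each chromosome. The ratio was 18.6, with an interval of 17.5 to 19.8 derived from the exact interval of the share of DMSO-only peaks within 10 kb. The lengths count every base, including any in which no peak could be called. The ratio and its interval were not corrected for such sequence. The density fell with distance at every step. It was 33.6 per Mb up to 0.5 kb from an edge, 20.6 per Mb between 1 and 2 kb, 5.93 per Mb between 5 and 10 kb, 3.43 per Mb between 10 and 20 kb and 0.249 per Mb beyond 100 kb. The 10 kb limit therefore falls within a gradual decline.

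The median distance from a member to its nearest AKBA edge was 1680 bp. Within 2 kb lay 1220 members (54.4%), within 1 kb 778 (34.7%), and within 0.5 kb 441 (19.7%). No gap between AKBA peaks was smaller than 857 bp and none between DMSO peaks smaller than 641 bp. The AKBA edge was less than 857 bp away for 692 members (30.9%), closer than any 2 AKBA peaks lay to each other. A single member, on chromosome 1 from 203097520 to 203097826, touched an AKBA peak of 1212 bp with no base between them, a region chosen after its value was seen. This holds if starts count from 0 as in BED. Were they to count from 1, the pair would share 1 base and the peak would not be a member.

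At the limit itself, the farthest members were a peak of 249 bp on chromosome 14 from 21121319 to 21121567, at 9.986 kb, and one of 337 bp on chromosome 2 from 30981880 to 30982216, at 9.962 kb. The first peaks outside it were 209 bp wide on chromosome 19 from 55118109 to 55118317, at 10.012 kb, and 758 bp wide on chromosome 12 from 4500663 to 4501420, at 10.014 kb. Their scores were 5.47 and 2.43 inside the limit and 2.47 and 2.35 outside it.

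The mirror set, AKBA-only peaks under 5000 bp within 10 kb of a DMSO edge, was larger in number but a smaller share of its kind. It held 3358 peaks, 37.6% of the 8925 AKBA-only peaks, whereas the members were 55.5% of the DMSO-only peaks. The sequence within 10 kb of an AKBA edge came to 182.6 Mb and that within 10 kb of a DMSO edge to 124.5 Mb, and the part of this difference in the shares was not tested. The density of AKBA-only peaks was 43.5 per Mb up to 0.5 kb from a DMSO edge and 51.7 per Mb between 1 and 2 kb, and 0.844 per Mb beyond 100 kb.

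**Figure D2:**
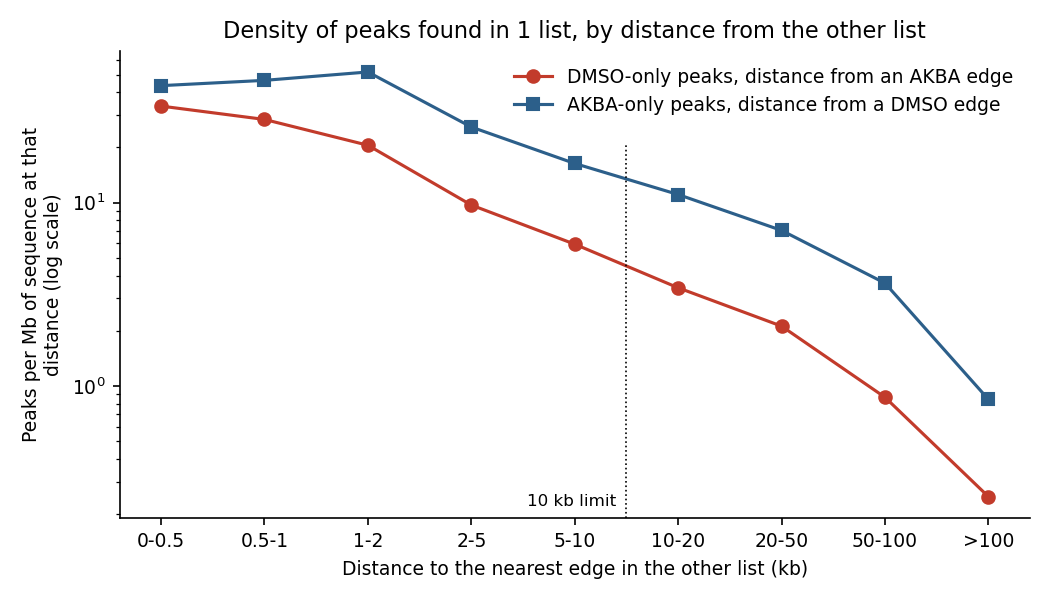
Peaks per Mb of sequence (vertical axis, log scale) in classes of distance from the nearest edge of the other list (kb), for DMSO-only peaks around AKBA peaks and for AKBA-only peaks around DMSO peaks. The dotted line marks the 10 kb limit. DMSO-only peaks decline from 33.6 per Mb in the nearest class to 0.249 per Mb in the farthest, with no break at the limit.

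Most members lay at an edge, with AKBA peaks on 1 side. An AKBA edge was within 10 kb on 1 side of 1616 members (72.1%, interval 70.2 to 74.0%) and on both sides of 625 (27.9%, 26.0 to 29.8%). The AKBA peak was on the side of the lower coordinate for 841 of the 1616 edge members (52.0%, interval 49.6 to 54.5%). Shared DMSO peaks had further AKBA peaks within 10 kb on both sides in 912 of 4849 cases (18.8%), a lower share than that of the members. That comparison is not even-handed, since a member has a near AKBA peak on at least 1 side by choice, whereas a shared peak has none by choice beyond the peak it overlaps. In the mirror set, 632 of the 3358 AKBA-only peaks lay between DMSO peaks (18.8%, interval 17.5 to 20.2%). The flanking list held 13155 peaks for the members and 8890 for the mirror set, so these shares are not even-handed either. With the AKBA list cut to its 8890 highest-scoring peaks, 22.6% of the then 2005 members lay between AKBA peaks.

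Most edge members stood beside a single AKBA peak, but their share was below that of single peaks among all AKBA domains. Joining AKBA peaks less than or exactly 10 kb apart gave 8774 domains, of which 6351 (72.4%) consisted of a single peak. Of the 1616 edge members, 1001 (61.9%, interval 59.5 to 64.3%) stood beside a domain of 1 peak. The other 615 (38.1%) stood at the outside of a domain of at least 2 peaks, whose median span was 8699 bp. The widest such domain spanned 125741 bp. Members inside a joined domain numbered 494 (22.0%), and these domains had a median span of 15779 bp and a median of 3 AKBA peaks. The 131 remaining members between AKBA peaks lay in gaps wider than 10 kb.

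Members between AKBA peaks were close in width and score to those at edges. Their median width was 384 bp, against 362 bp at edges, and their median score 2.76, against 2.72. The median distance to the nearest AKBA edge was 992 bp between AKBA peaks and 2224 bp at edges. The farther of the flanking AKBA peaks was at a median of 3916 bp. The nearest distance is the smaller of 2 for a member between AKBA peaks and the single one within the limit at an edge, so the classification itself favours the shorter distance.

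The 625 members between AKBA peaks occupied 581 separate gaps, of which 539 held 1 of them, 40 held 2 and 2 held 3. The gaps had a median width of 5597 bp, which the distance limit largely sets, as it was 3461 bp with a limit of 5 kb and 10542 bp with one of 20 kb. DMSO peaks filled a median of 9.36% of a gap. At least 50% of the gap was filled by DMSO peaks in 16 of the 581 gaps (2.75%). Among all gaps of up to 2 kb in the AKBA list, 78 of 1802 (4.33%) held a member with AKBA edges within 10 kb on both sides. The share was 13.2% for gaps of 2 to 5 kb, 16.5% for gaps of 5 to 10 kb and 8.20% for gaps of 10 to 20 kb. For each Mb of gap, 34.2 gaps with such a member were found at up to 2 kb, 40.3 at 2 to 5 kb, 22.6 at 5 to 10 kb and 5.60 at 10 to 20 kb. Gaps wider than 10 kb can also hold edge members, and the values for 10 to 20 kb leave out gaps with edge members only.

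The 5 gaps with the greatest share filled by DMSO peaks each held 1 member. The most completely filled gap, on chromosome 20 from 30622481 to 30623763, was 1283 bp wide between AKBA peaks of 585 and 317 bp. A member of 1129 bp filled 88.0% of it and stopped 150 bp and 4 bp short of the AKBA peaks. Neither of these AKBA peaks overlapped a DMSO peak, so the DMSO call sat where AKBA calls left a break.

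On chromosome 11 from 116454409 to 116455778, a gap of 1370 bp separated AKBA peaks of 5329 and 328 bp, and a member of 959 bp with a score of 4.88 filled 70.0% of it. The wide AKBA peak overlapped 1 DMSO peak and the narrow one none. On chromosome 10 from 102584580 to 102586094, the gap of 1515 bp lay between AKBA peaks of 628 and 5823 bp and was filled to 66.7% by a member of 1011 bp. Here the wide AKBA peak overlapped 2 DMSO peaks.

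The remaining gaps were on chromosome 9. From 80795531 to 80796523 a gap of 993 bp was filled to 67.7% by a member of 672 bp, 157 and 164 bp from the AKBA peaks beside it. From 138241367 to 138242450 a gap of 1084 bp was filled to 65.6% by a member of 711 bp, 182 and 191 bp from AKBA peaks of 1309 and 1518 bp. In both, the member lay near the middle of a break just wider than the smallest AKBA gap of 857 bp.

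The AKBA peak beside a member had a median width slightly above that of the whole AKBA list. The median width of the nearest AKBA peak was 789 bp (interval of the median 765 to 815 bp), against 742 bp (729 to 756 bp) for all AKBA peaks. Their median scores were 3.04 and 2.99. Neighbours of at least 2 kb belonged to 14.2% of members, while 14.0% of all AKBA peaks were that wide. Neighbours of at least 5 kb belonged to 1.74% of members, while 1.84% of all AKBA peaks were that wide. Broad AKBA peaks were thus about as frequent beside members as in the whole AKBA list. The neighbour was wider than its member in 1720 cases (76.8%), in a list whose narrowest peak measured 214 bp against 160 bp in the DMSO list.

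The members had 1984 different neighbours, which is 15.1% of all AKBA peaks. A single member belonged to 1761 of them, 2 members to 194, 3 to 25, 4 to 3 and 5 to 1, so members that share a neighbour are not independent of each other. The share of AKBA peaks that were the neighbour of a member was not highest among the widest. It was 14.0% under 0.5 kb, 14.8% between 0.5 and 1 kb, 17.3% between 1 and 2 kb, 15.2% between 2 and 5 kb and 14.9% at 5 kb and over. The highest value belonged to AKBA-only peaks of 1 to 2 kb, of which 269 of 1370 were neighbours (19.6%, interval 17.6 to 21.8%). AKBA peaks of that width that overlapped a DMSO peak were neighbours in 14.8% of cases (12.9 to 16.8%).

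**Figure D3:**
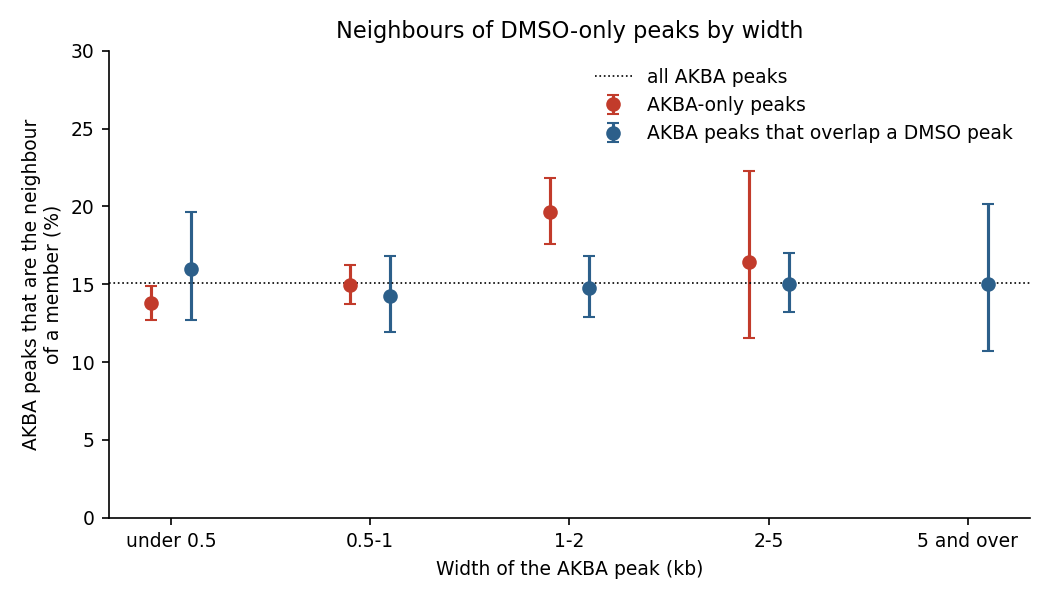
Share of AKBA peaks that are the nearest AKBA peak of a member (%, vertical axis) by width of the AKBA peak (kb), for AKBA-only peaks and for AKBA peaks that overlap a DMSO peak. Points are shares, bars exact 95% intervals for counting error, and the dotted line all AKBA peaks (15.1%). The class of 5 kb and over has no point for AKBA-only peaks, which number 2 there. AKBA-only peaks of 1 to 2 kb stand highest at 19.6%.

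A neighbour overlapped another DMSO peak for 707 members (31.5%, interval 29.6 to 33.5%), close to the 32.2% of all AKBA peaks that overlapped one. The remaining 1534 members (68.5%) had an AKBA-only peak as neighbour. Neighbours that overlapped a DMSO peak had a median width of 1634 bp and AKBA-only neighbours one of 612.5 bp, against 1565.5 and 558 bp for all AKBA peaks of these kinds. The share with an overlapping neighbour was 27.7% up to 0.5 kb, 45.4% between 0.5 and 1 kb, 34.8% between 1 and 2 kb, 31.0% between 2 and 5 kb and 22.9% between 5 and 10 kb. No 2 DMSO peaks lay closer than 641 bp to each other, and the part of this in the lower value up to 0.5 kb was not tested. Both AKBA peaks around a member overlapped DMSO peaks for 81 of the 625 members between AKBA peaks, 1 of them did for 280 and none for 264.

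In the majority of cases an AKBA-only peak and the member were each other's nearest peak of the other list. This applied to 1290 members (57.6%, interval 55.5 to 59.6%), of which 937 were at edges and 353 between AKBA peaks. At most the 68.5% of members with an AKBA-only neighbour could form such pairs, and no share over other peaks was computed for comparison. In these pairs the median width was 616 bp for the AKBA peak and 378.5 bp for the member, with a median distance of 1530 bp. The AKBA peak was the wider one in 898 pairs (69.6%). With widths expressed in multiples of the narrowest width of each list, 214 and 160 bp, the AKBA peak was the wider one in 734 (56.9%). No shared DMSO peak lay within 10 kb of 1262 members (56.3%).

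Members nevertheless often stood among other DMSO peaks. Another DMSO peak of any kind was within 10 kb of 1334 members (59.5%), as of 59.5% of shared peaks, against 14.6% of the DMSO-only peaks farther from AKBA. The median distance to the nearest DMSO peak was 6488 bp for members, 53620.5 bp for the farther DMSO-only peaks and 3804 bp for shared peaks. Since the choice of members puts them near AKBA peaks, where DMSO peaks also gather, this closeness is not independent of the rule.

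Where the neighbour overlapped exactly 1 DMSO peak, and that peak no other AKBA peak, the edges of the overlapping peaks were compared on the side of the member and on the opposite side. This was possible for 587 members. The AKBA edge lay beyond the DMSO edge by a median of 281 bp on the side of the member and 111 bp on the other side, and the median of the differences was 153 bp. The AKBA edge was the outer one in 73.4% of cases on the side of the member and in 63.2% on the other. The difference rested on members very near to the AKBA peak. Without those closer than 641 bp, 456 members remained, with medians of 121.5 bp on their side and 110.5 bp on the other and a median difference of 36 bp (interval −31 to 123 bp). A member closer than 641 bp to the AKBA edge leaves room for the overlapping DMSO peak only if the AKBA peak reaches past it. A member somewhat farther away still limits how far that DMSO peak can pass the AKBA edge on its side. The cut at 641 bp therefore does not fully remove this effect.

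The 5 highest-scoring members were of different kinds. The highest score, 8.28, belonged to a member of 1054 bp on chromosome 10 from 42384628 to 42385681. Its nearest AKBA peak, 6.88 kb away, measured 337 bp, and on the other side the list held no AKBA peak for 6029 kb. That distance counts every base, including any in which no peak could be called, so it does not show a lack of the mark. The input DNA was not used here, and whether this highest score reflects the mark was not tested. The next member, with a score of 7.59, measured 191 bp on chromosome 9 from 137975328 to 137975518. It lay between AKBA peaks 1.55 and 1.528 kb away.

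The third, on chromosome 3 from 197840551 to 197840799, was 249 bp wide with a score of 6.68 and lay 0.792 kb from an AKBA-only peak of 214 bp, the narrowest width of that list. The fourth, on chromosome 4 from 174451936 to 174452853, measured 918 bp with a score of 6.61, between AKBA peaks of 1403 and 245 bp that were 0.925 and 1.451 kb away. The fifth, on chromosome 15 from 66475966 to 66476175, was 210 bp wide with a score of 6.23 and lay 0.751 kb from an AKBA peak of 1189 bp that overlapped a DMSO peak. Of these 5 members, 3 were narrower than the median member.

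The 5 widest members had AKBA-only neighbours narrower than themselves. The widest, with a score of 4.53, measured 2454 bp on chromosome 16 from 50581278 to 50583731. It lay between AKBA-only peaks of 586 and 692 bp at 1.445 and 0.268 kb. The second, 2306 bp on chromosome 20 from 47028889 to 47031194, was 1.195 kb from an AKBA-only peak of 1055 bp. The third, 2059 bp on chromosome 15 from 93000261 to 93002319, was 0.192 kb from one of 771 bp. In these 3 places the DMSO list held the longer called stretch.

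The fourth, 2049 bp on chromosome 9 from 136168024 to 136170072, stood 9.031 kb from an AKBA-only peak of 427 bp. The fifth, 1955 bp on chromosome 11 from 2737722 to 2739676, stood 4.619 kb from one of 782 bp.

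The 5 members beside the widest AKBA neighbours measured 169 to 1139 bp and had scores of 2.06 to 2.84. The widest neighbour measured 11812 bp, on chromosome 9 from 139083727 to 139095538, and overlapped 1 DMSO peak. Its member, of 169 bp with a score of 2.22, lay 3.871 kb outside it. The next measured 11793 bp, on chromosome 3 from 137479227 to 137491019, and shared sequence with 2 DMSO peaks. A member of 432 bp lay 2.159 kb from it.

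On chromosome 21 from 34392885 to 34403385 an AKBA peak of 10501 bp overlapped 2 DMSO peaks, and a member of 1139 bp ended 0.023 kb before it. An AKBA peak of 10285 bp on chromosome 1, from 37494656 to 37504940, overlapped 2 DMSO peaks and had a member of 452 bp at 7.879 kb. On chromosome 7 from 27278111 to 27288083 an AKBA peak of 9973 bp overlapped 4 DMSO peaks, and the member beside it, of 393 bp, was at 2.207 kb with a score of 2.06. All 5 neighbours overlapped DMSO peaks of their own, so these members flanked regions called in both lists.

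**Figure D4:**
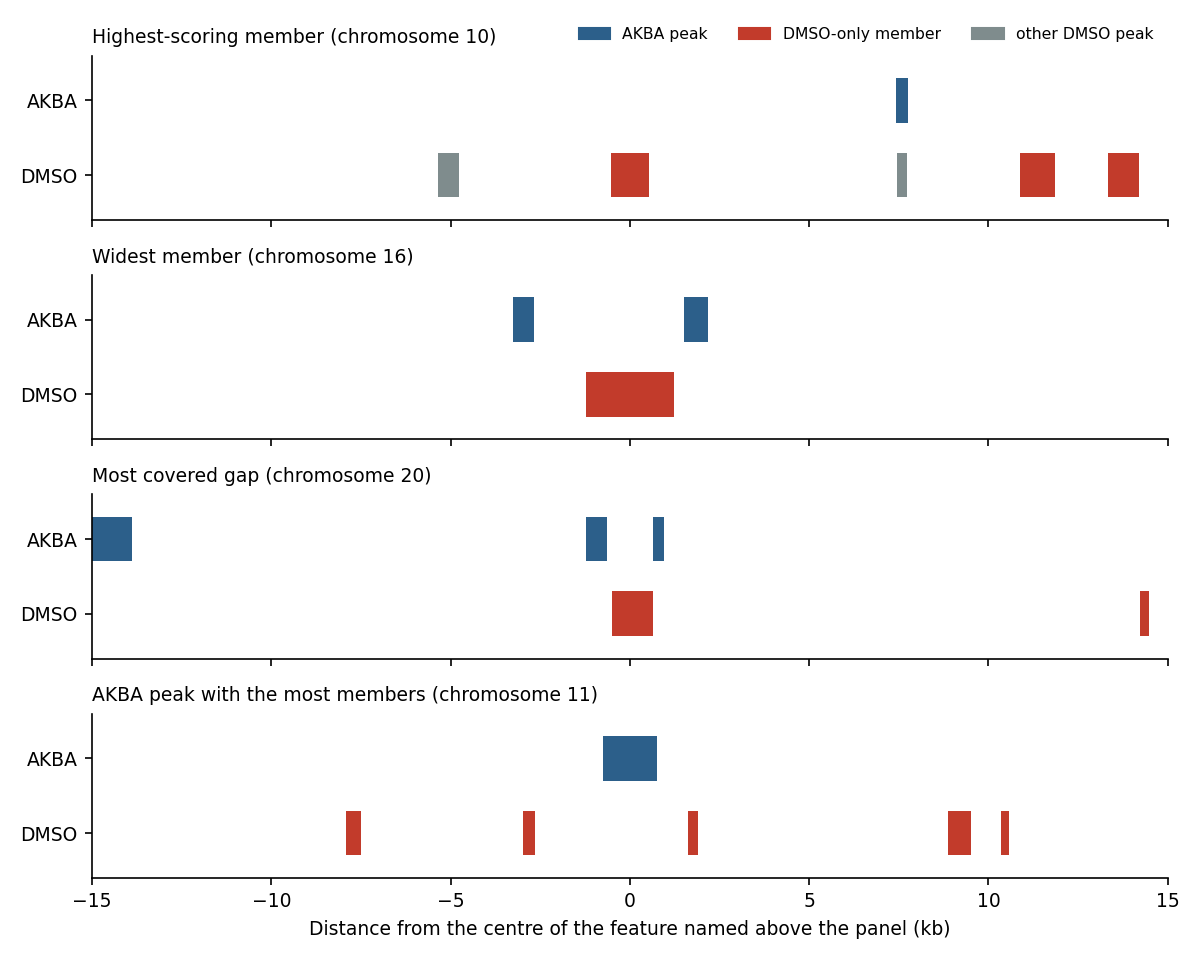
AKBA peaks (upper row) and DMSO peaks (lower row) as bars to scale around 4 features, with distance from the centre of each feature in kb. Members are drawn in red and other DMSO peaks in grey. The widest member (2454 bp) lies between separate AKBA peaks, the member in the most completely filled gap stops 150 and 4 bp from the AKBA peaks, and the AKBA peak of 1509 bp has 5 members around it.

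Several members could gather at 1 AKBA peak. The AKBA-only peak on chromosome 11 from 120654511 to 120656019, of 1509 bp, was nearest to 5 members, which measured 223 to 640 bp and lay 860 to 9591 bp away, 2 on the side of lower coordinates and 3 on the other. Another 3 AKBA peaks had 4 members each. On chromosome 10 an AKBA-only peak of 214 bp, from 132930581 to 132930794, had members of 160 to 786 bp that all lay on the same side at 4045 to 8750 bp. An AKBA-only peak of 324 bp on chromosome 11, from 117541276 to 117541599, likewise had 4 members on 1 side, of 162 to 500 bp and at 2130 to 7793 bp. In both places the DMSO list held a row of small peaks on 1 side of their nearest AKBA peak. All were edge members, without an AKBA edge within 10 kb on their other side. On chromosome 13 the AKBA peak from 46189577 to 46190280, of 704 bp, overlapped a DMSO peak and had 2 members on either side, at 776 to 5262 bp.

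Members occurred on all 23 chromosomes with peaks, and their share varied. As a share of DMSO peaks it ran from 11.5% on chromosome X (14 of 122, interval 6.42 to 18.5%) to 31.7% on chromosome 20 (153 of 483, interval 27.5 to 36.0%), and the interval of 17 of the 23 chromosomes included the overall 25.2%. Chromosomes 3, 4, 6 and X were below it and chromosomes 10 and 20 above. As a share of DMSO-only peaks, 73.6% were members on chromosome 20 (interval 67.0 to 79.4%) and 40.4% on chromosome 3 (32.8 to 48.2%). Chromosomes 5 (45.1%) and 6 (44.2%) were also below the overall 55.5% by this measure. The intervals of the other 19 chromosomes included it, those of chromosomes 4, 10 and X among them. Chromosome 20 had 11.7 AKBA peaks per Mb and chromosome 3 had 2.80, and the part of this density in the share was not tested. The share of members between AKBA peaks was highest on chromosome 4 (21 of 40, 52.5%) and on chromosome 9 (64 of 147, 43.5%), and lowest on chromosome 13 (7 of 59, 11.9%).

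**Figure D5:**
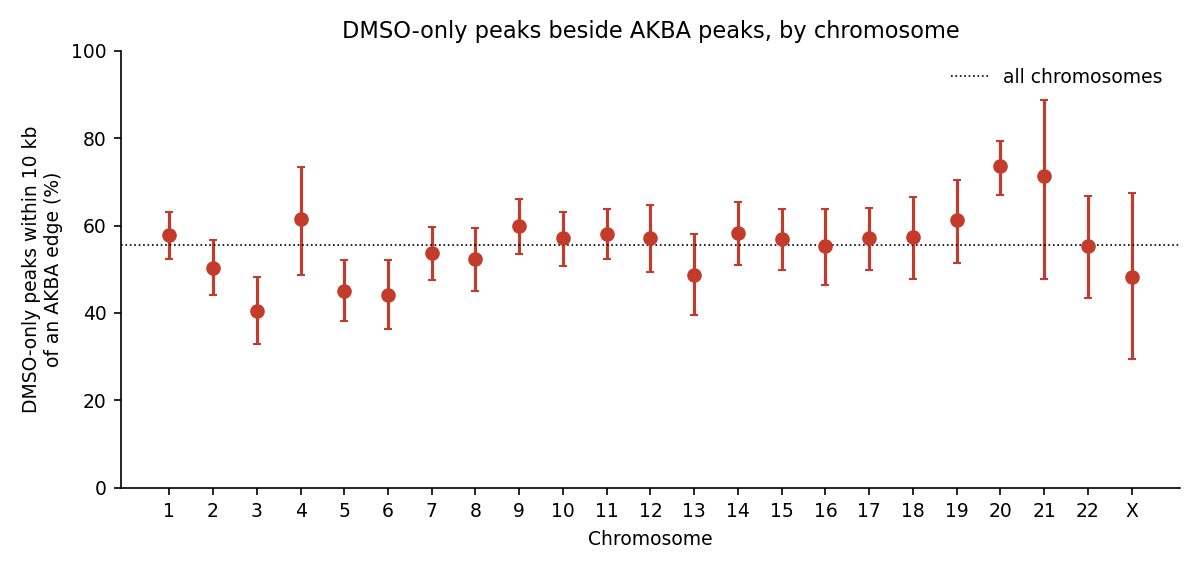
Share of DMSO-only peaks that are within 10 kb of an AKBA edge (%, vertical axis) on each chromosome. Points are shares, bars exact 95% intervals for counting error, and the dotted line the share over all chromosomes (55.5%). Chromosome 20 stands highest at 73.6% and chromosome 3 lowest at 40.4%.

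Members fell in 844 windows of 1 Mb, of which 384 held 1 member and 130 held 5 or more, and these 130 windows contained 44.5% of all members. They also contained 14.3% of the farther DMSO-only peaks and 25.5% of the shared DMSO peaks, but the windows were picked by their members, so the higher share of members was favoured. The window with the most was on chromosome 9 between 137 and 138 Mb, with 20 members among 44 DMSO peaks, 14 of them between AKBA peaks. The second, on chromosome 20 between 57 and 58 Mb, held 19 members among 42 DMSO peaks, and 10 were between AKBA peaks. The third, on chromosome 12 between 2 and 3 Mb, held 18 among 46, and 8 were between AKBA peaks. All 3 were densely marked in both lists, with 53.4, 63.7 and 68.2 kb of AKBA peaks and 30.8, 25.0 and 24.9 kb of DMSO peaks, and 23, 22 and 23 of their DMSO peaks were shared.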

How the data were processed

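H3K27me3 peaks of 1 AKBA and 1 DMSO library of HaCaT cells were analysed, and the input DNA libraries were not used here. The submitters' processing notes name the build hg19 and the tools BWA, STAR and MACS2 without version or role. Neither the calling threshold nor the role of the input DNA or the handling of duplicates is stated in the labels. The deposited lists give chromosome, start, end, name and a score per peak, from 2.03 to 14.3 for AKBA and from 2.00 to 18.7 for DMSO. What this score that the authors deposited measures is not stated, so it served to rank and filter peaks within a list. Starts were read as BED positions and printed as 1-based hg19 positions.

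Distances, counts and intervals were computed with scipy 1.17.1, pandas 2.3.3 and numpy 2.4.6 under Python 3.11.15. The choice of members was checked against bedtools 2.31.1, which gave the same 2241 peaks, and tested on simulated data. Medians have exact binomial intervals. The gene table at hand is of GRCh38.p14, and 229 peaks end past its last gene of their chromosome, so no gene or sequence was assigned to a peak. Members and lists were chosen with earlier results of these data known. Regions named were the 5 highest-scoring and 5 widest members, the 5 with the widest neighbours, the 5 most completely filled gaps, the AKBA peaks with the most members (4, because of ties), the 3 windows of 1 Mb with the most members, and the peaks at the distance limit.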

Additional observations from a re-analysis of the deposited data

How the results depend on the processing

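With 1 library per condition no library could be left out, and no test across libraries was possible. No paired analysis was possible because each group has 1 sample. The number of members stayed within 1.5 times of 2241 except with scores of at least 3 (681) and peaks of at least 500 bp (731), which remove peaks. Scores of at least 3 gave 21.1% between AKBA peaks, a neighbour of 1114 bp, 34.9% with a neighbour that overlaps a DMSO peak, a density ratio of 17.1 and members of 259 bp. Equal numbers of peaks, with the lowest-scoring AKBA peaks left out, gave 22.6%, 921 bp, 40.8%, 17.2 and 392 bp for these. Peaks of at least 500 bp gave 22.2% between, neighbours of 1071 bp, members of 695 bp and a difference between facing and opposite edges of 45 bp. Without the narrowest peaks, neighbours had 846 bp and members 429 bp. Neighbours had 736 bp with AKBA peaks narrowed by 27 bp on each side and 843 bp with AKBA peaks widened. Joining DMSO peaks across gaps under 857 bp gave 27.4% with an overlapping neighbour and a ratio of 17.3, and merging both lists within 1 kb gave 25.7%, 16.6 and gaps of 6255 bp. A limit of 5 kb gave 21.1% between, 33.9% with an overlapping neighbour, a ratio of 21.2 and gaps of 3461 bp. A limit of 20 kb gave 39.7% between, a ratio of 16.5 and gaps of 10542 bp. Counting peaks within 500 bp as shared gave 24.6% between and a ratio of 14.9. The length behind this ratio still included the sequence within 500 bp of an AKBA edge, where no peak could then count. That setting also gave gaps of 7075 bp and an edge difference of 63 bp. Without members closer than 641 bp, chosen after seeing the data, that difference was 36 bp. The cause of these changes was not tested beyond what the settings remove or join. The width and overlap share of all AKBA peaks were not recomputed under these settings, so the neighbour values have no background beside them. The remaining 60 of 97 recomputed values stayed within 1.5 times for counts or within the counting interval for the others. The median edge difference, the one result that could change sign, stayed above 0. Members very near to the AKBA peak partly fix that sign in advance. Without those closer than 641 bp the interval of the median, −31 to 123 bp, included 0. The setting without an upper width limit removed no peak and so shows nothing. Its values repeat the main ones and are counted among the 60. Unknown depth limits every comparison, since a peak missing from a list may lie just below its threshold.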
